A study of Mus musculus with 6 samples.

Results

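An antibody is made of heavy and light chains, and a light chain is of the kappa or the lambda type. The genes described here are those of the constant part of the light chain together with the lambda variable (V) genes. They are *Igkc*, the single kappa constant gene, *Iglc1*, *Iglc2*, *Iglc3* and *Iglc4*, the lambda constant genes, and *Iglv1*, *Iglv2* and *Iglv3*, the lambda V genes. They are a list of names that uses no measured value, drawn up with earlier results of these data known, and are 8 of the 54446 genes in the deposited values. Each B cell joins a V and a J segment at one light chain locus, and splicing then links the joined VJ exon to a constant exon, so that a cell makes kappa or lambda chains and rarely both. Most mouse B cells carry kappa. In plasmablasts and plasma cells, the cells that secrete antibody, light chain transcripts are among the most abundant mRNAs.

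The libraries came from B cells isolated from the spleen of *Tent5c* KO mice and their WT littermates, on a mixed C57BL/6J X CBA background, aged 12 to 15 weeks. TENT5C is a non-canonical poly(A) polymerase of the cytoplasm, and the study asked whether it acts on transcripts of activated B cells. Naive B cells of both genotypes were isolated by negative selection and activated in culture with IL-4 at 20 ng/ml and LPS at 20 µg/ml for 7 days, so no resting or unstimulated cells are among the samples. There were 3 KO and 3 WT libraries, made from ribosome-depleted total RNA, and each replicate number stands for 1 batch with a KO and a WT littermate, called here a pair. Each library held 5393558 to 6793520 fragments on genes. The sources used here call the KO a mouse strain from heterozygous matings, created with a guide RNA and Cas9 mRNA, and name no Cre driver.

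The *Tent5c* transcript itself was not lower in the libraries labelled KO. It was 1993, 993 and 1170 normalized counts in the KO libraries of pairs 1, 2 and 3 and 1255, 767 and 1585 in the WT libraries (log2 difference 0.20 ± 0.19 SE, limma adjusted p = 0.970). Which part of the gene the KO alters was not analysed here, and the groups below are the libraries as labelled. B cell markers were abundant in all libraries: all 10 of 10 listed were tested, and their summed level was 53827 to 62885 normalized counts in KO and 59609 to 61285 in WT. Of these markers *Cd79a* (log2 difference -0.21 ± 0.080 SE) and *Cd74* (-0.18 ± 0.072 SE) were lower and *Cr2* (0.83 ± 0.20 SE) was higher in KO at an unadjusted p under 0.05, and none passed the adjusted threshold in limma. Plasma cell markers (*Sdc1*, *Prdm1*, *Xbp1*, *Irf4*, *Jchain* and others) summed to 21735, 13025 and 15863 in KO and 17280, 13181 and 26130 in WT. Their sum was thus higher in KO in pair 1, close to WT in pair 2 and higher in WT in pair 3. T cell markers summed to 133 to 212 in KO and 128 to 179 in WT, myeloid markers to 67.7 to 158 and 117 to 166, with *S100a8*, *S100a9* and *Fcgr1* at 0, and erythroid markers to at most 4.72. Most of the T cell sum was *Lck*, at a mean of 121 normalized counts, while 8 of the 10 T cell markers had a mean under 10. In RNA from whole cultures, fewer cells of a type and less RNA per cell cannot be told apart.

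The genes lie in 2 places on the GRCm38 genome. *Igkc* is on the plus strand at chr6:70726435-70726966, a single exon of 532 bases. The lambda genes are on the minus strand of chromosome 16, where *Iglv1* (chr16:19085017-19085500) precedes *Iglc3* (chr16:19065230-19065681) and *Iglc1* (chr16:19061618-19062071) in the direction of transcription. *Iglv2* (chr16:19260401-19260859) and *Iglv3* (chr16:19241207-19241690) precede *Iglc2* (chr16:19198396-19200351) and *Iglc4* (chr16:19194999-19195312). V genes generally join the J segments that lie downstream of them, and so this order says which constant gene a lambda V gene is most often spliced to.

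How alike the lambda genes are decides how well a short fragment can be placed on one of them, and their sequences are therefore shown first. The first 60 coding bases of each constant gene follow, from the annotated Gencode vM21 transcripts, 5′ to 3′ on the strand of the gene, with capitals where a base differs from *Iglc2* in a pairwise alignment.
Iglc2 (chr16:19198794-19198853, minus strand): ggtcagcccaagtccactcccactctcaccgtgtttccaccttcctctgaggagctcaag
Iglc3 (chr16:19065622-19065681, minus strand): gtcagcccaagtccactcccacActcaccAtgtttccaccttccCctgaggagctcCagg
Iglc1 (chr16:19062012-19062071, minus strand): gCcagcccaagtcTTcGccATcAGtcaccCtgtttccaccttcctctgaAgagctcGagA
Iglc4 (chr16:19195253-19195312, minus strand): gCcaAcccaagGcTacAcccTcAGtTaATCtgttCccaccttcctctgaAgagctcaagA
Igkc (chr6:70726435-70726494, plus strand): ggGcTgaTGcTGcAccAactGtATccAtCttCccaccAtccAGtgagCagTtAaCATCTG
Over their whole coding parts, *Iglc2* and *Iglc3* were identical at 96.2% of aligned positions, with a longest shared run of 79 bases. *Iglc1* and *Iglc4* matched at 85.0% (longest run 31 bases) and *Iglc1* and *Iglc2* at 73.3%. *Igkc* matched each lambda constant gene at 51.5% to 54.6%, with no shared run over 8 bases.

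The start of the second exon of the lambda V genes, 90 bases each, shows the same for the V genes, with capitals where a base differs from *Iglv1*.
Iglv1 (chr16:19085232-19085321, minus strand): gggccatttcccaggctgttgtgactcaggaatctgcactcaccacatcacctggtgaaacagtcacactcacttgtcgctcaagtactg
Iglv2 (chr16:19260616-19260705, minus strand): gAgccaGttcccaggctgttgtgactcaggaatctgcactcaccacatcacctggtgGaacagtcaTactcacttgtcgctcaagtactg
Iglv3 (chr16:19241441-19241530, minus strand): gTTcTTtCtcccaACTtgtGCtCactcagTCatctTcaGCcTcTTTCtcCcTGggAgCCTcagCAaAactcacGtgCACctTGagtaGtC
*Iglv1* and *Iglv2* matched at 96.9% of coding positions with a run of 104 bases in common, whereas *Iglv3* matched them at 55.4% and 54.8%. Of all windows of 75 bases, the read length, the share found in another annotated transcript was 1.30% for *Iglc2*, 7.14% for *Iglc3*, 9.46% for *Iglv1*, 10.3% for *Iglv2* and 0% for *Igkc*, *Iglc1*, *Iglc4* and *Iglv3*. *Iglv1* and *Iglv2* shared their windows with each other, *Iglc2* with *Iglc3*, and *Iglc3* with *Iglc2* or an antisense transcript at the same place. The split between *Iglc2* and *Iglc3* and between *Iglv1* and *Iglv2* is thus uncertain, since the authors' counting left out fragments that could not be placed. How large this uncertainty is was not measured, because reads were paired and a mate outside a shared window can place a fragment. Reads trimmed to as few as 30 bases were kept. Of windows of 30 bases, 25.6% were shared for *Iglc2*, 41.8% for *Iglc3*, 37.6% for *Iglv1* and 40.4% for *Iglv2*, and at most 0.702% for the rest. *Iglj2*, the J segment of *Iglc2*, lies wholly within an annotated exon of *Iglc2* and was listed at 0 in all 6 libraries. That antisense transcript, *2010309G21Rik*, shares 20.6% of the exon bases of *Iglc3* on the opposite strand, which the strand-specific counting keeps apart. The window shares of *Iglc3* above include this transcript and so overstate the sequence in common with *Iglc2*.

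*Igkc* was by far the most abundant of these genes, the 16th highest by mean level of all genes in the file. Its level was 16879, 9681 and 14006 normalized counts in the KO libraries of pairs 1, 2 and 3 and 23749, 16808 and 37309 in the WT libraries. Every KO library was below the WT library of its pair, while the groups overlapped, since KO of pair 1 lay just above WT of pair 2. The mean was 13522 ± 3624 in KO and 25955 ± 10427 in WT (SD, n = 3 each), and the ratio of KO to WT was 0.711, 0.576 and 0.375 in pairs 1, 2 and 3. The log2 difference was -0.90 ± 0.16 (SE), with an unadjusted p of 0.00118 and an adjusted p of 0.693 by limma with the pair as a block, so that *Igkc* did not pass the test across all genes. Without pair 3 the log2 difference of *Igkc* was -0.64 (limma adjusted p = 0.0855), and without pair 1 it was -1.10 (limma adjusted p = 0.00203).

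None of the 12322 genes tested passed an adjusted p of 0.05 in this fit (0%). At an unadjusted p under 0.05, limma had 373 genes lower in KO (3.03%) and 206 higher (1.67%). The adjusted counts were 0 in edgeR and 22 lower and 1 higher in DESeq2. Of those 22 genes, 10 were kappa V genes and 0 were among the 8 genes described here. Of the 7 light chain genes tested, 6 were lower and 1 higher in KO, with a median log2 difference of -0.34 against 0.00067 over all genes. In 5 of the 7 the KO library was the lower in all 3 pairs, against 13.1% of all genes, and *Igkc* alone had an unadjusted p under 0.05. Of the 5, *Iglc1*, *Iglc3* and *Iglv1* had log2 differences as small as -0.043, -0.0092 and -0.014 in single pairs. V and constant genes are also parts of the same transcripts, and so this is no count of independent genes. Among the 1207 genes whose mean level reached 1000 normalized counts, 5 had a lower log2 difference than *Igkc*.

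*Iglc1*, *Iglc2* and *Iglc3* were closer between genotypes than *Igkc* in pairs 1 and 2. *Iglc1*, the constant gene of the lambda 1 chain, was 1695, 1671 and 1443 normalized counts in KO and 1746, 1722 and 2751 in WT. All KO libraries of *Iglc1* lay below all WT libraries, as for 3.44% of all genes, but with a log2 difference of only -0.043 in pairs 1 and 2, against -0.93 in pair 3. Its log2 difference was -0.34 ± 0.17 SE (limma adjusted p = 0.970), and -0.043 without pair 3.

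*Iglc2*, of the lambda 2 chain, was 1373, 1119 and 1137 normalized counts in KO and 1462, 1099 and 1400 in WT, and the groups overlapped (log2 difference -0.12 ± 0.079 SE). *Iglc3*, of the lambda 3 chain, was 783, 774 and 749 in KO and 852, 779 and 893 in WT. The libraries of *Iglc3* spanned 1.19-fold from lowest to highest, the narrowest range of the 8 genes, against 3.85-fold for *Igkc*. Its log2 difference was -0.13 ± 0.073 SE, and neither *Iglc2* nor *Iglc3* passed the test (limma adjusted p = 0.970 for both).

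*Iglc4*, a lambda constant gene with no known functional chain, was near the limit of detection, with 14, 10 and 7 fragments in KO and 6, 11 and 6 in WT. The exact Poisson 95% intervals ran from 7.65 to 23.5 for the highest and from 2.20 to 13.1 for the lowest of these counts, and so no difference was detectable at this depth. With a mean of 8.92 normalized counts, *Iglc4* was under the minimum of 10 and was not tested.

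**Figure D1:**
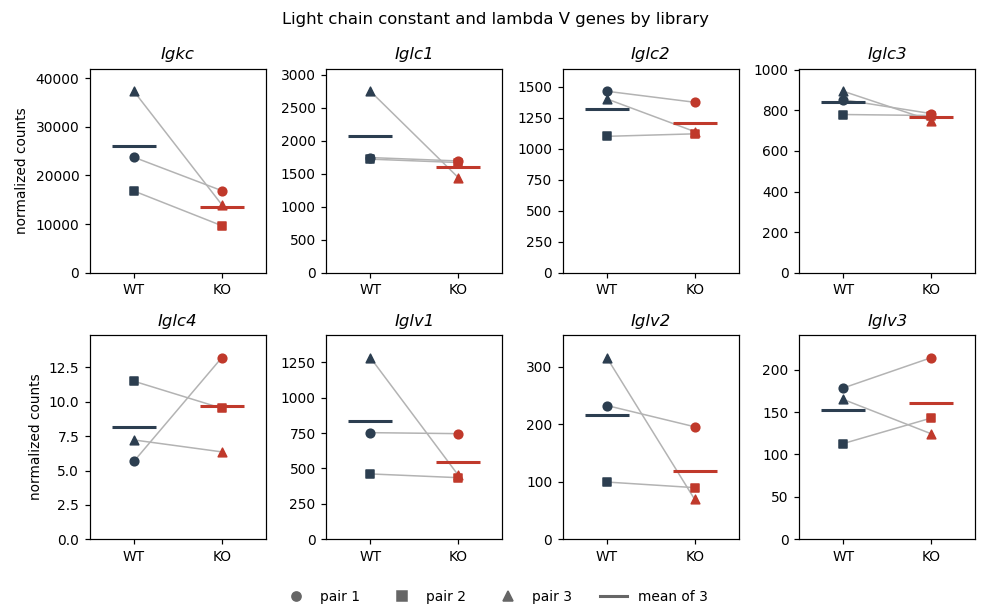
Normalized counts (linear axis from 0) of the 8 genes in the WT and KO libraries, with a marker for each library, a grey line joining the libraries of a pair and a horizontal bar at the mean of 3 libraries. *Igkc* is lower in KO in each pair, from 0.375 to 0.711 of WT, while *Iglc2* and *Iglc3* span at most 1.33-fold over the 6 libraries.

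Among the lambda V genes, *Iglv1* was 746, 435 and 452 normalized counts in KO and 753, 461 and 1282 in WT. Its log2 differences in pairs 1, 2 and 3 were -0.014, -0.085 and -1.50. The log2 difference of *Iglv1* was -0.53 ± 0.28 SE over 3 pairs and -0.049 without pair 3. *Iglv2* had 195, 89.6 and 69.0 normalized counts in KO and 232, 99.3 and 315 in WT, and was lower in KO in each pair, with a log2 difference of -0.86 ± 0.38 SE and -0.20 without pair 3. *Iglv3* was the exception, at 214, 143 and 124 in KO and 178, 113 and 165 in WT. It was the higher in KO in pairs 1 and 2 and the lower in pair 3 (log2 difference 0.07 ± 0.17 SE), and 0.30 higher without pair 3. The limma adjusted p was 0.970 for *Iglv1* and *Iglv2* and 0.984 for *Iglv3*.

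The WT library of pair 3 thus held the highest value of *Igkc*, *Iglc1*, *Iglc3*, *Iglv1* and *Iglv2* among the 6 libraries. Compared with the mean of the other WT libraries it was 1.84-fold higher in *Igkc*, 1.59-fold in *Iglc1*, 2.11-fold in *Iglv1* and 1.90-fold in *Iglv2*, but 1.09-fold in *Iglc2* and 1.10-fold in *Iglc3*. That library also had the fewest fragments and the highest sum of plasma cell markers. *Jchain*, which encodes the chain that joins IgM and IgA units, was at 8096 normalized counts in it, against 2171 to 4744 in the other libraries. *Sdc1*, *Mzb1* and *Slamf7* were also highest in it. *Prdm1*, *Xbp1* and *Irf4* were instead highest in KO of pair 1, at 565, 6743 and 3664, against 409, 6463 and 3338 in WT of pair 3. The part of these in the light chain values was not tested.

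**Figure D2:**
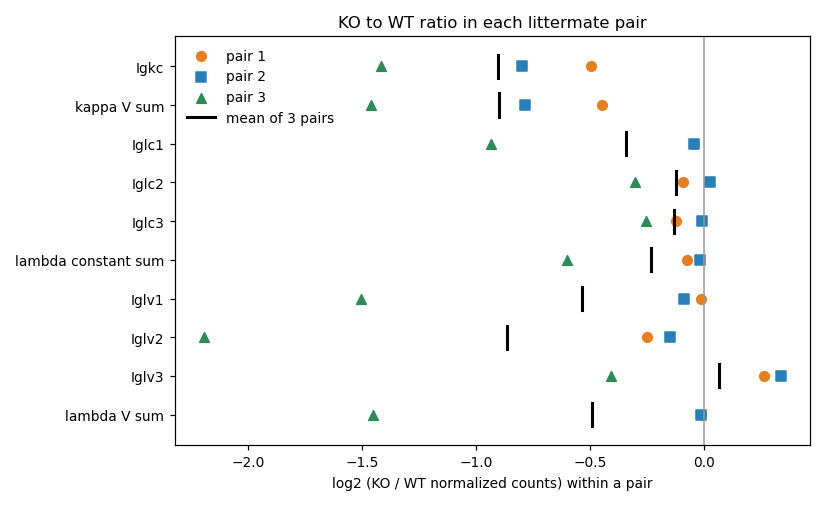
Log2 ratio of KO to WT normalized counts within each littermate pair for single genes and for sums of genes, with a marker for each pair and a black bar at the mean of 3 pairs. *Igkc* and the kappa V sum lie left of 0 in each pair, while most lambda values lie near 0 in pairs 1 and 2 and left of 0 in pair 3.

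The constant genes of lambda were next taken as a sum, since fragments misplaced between near-identical genes do not change it. The lambda constant sum was 3865, 3573 and 3335 normalized counts in KO and 4066, 3611 and 5052 in WT, with ratios of KO to WT of 0.951, 0.990 and 0.660. Its mean log2 difference over pairs was -0.23 ± 0.32 (SD, n = 3 pairs; exact sign-flip permutation test, two-sided p = 0.25), a difference smaller than its spread. With 3 pairs this test cannot give a p below 0.25, and adjusted over the 3 planned tests of this kind the p was 0.25 for each. Without pair 3 the mean difference of the lambda sum was -0.044.

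The kappa to lambda ratio, *Igkc* over the lambda constant sum, does not depend on how libraries were scaled. It was 4.37, 2.71 and 4.20 in KO and 5.84, 4.65 and 7.38 in WT. Each KO library was below each WT library, and the mean was 3.76 ± 0.91 in KO and 5.96 ± 1.37 in WT (SD, n = 3 each). Within pairs the WT ratio was 1.34-fold, 1.72-fold and 1.76-fold the KO ratio, a mean log2 difference of -0.67 ± 0.22 (SD, n = 3 pairs; exact sign-flip permutation test, two-sided p = 0.25, the smallest that 3 pairs allow). Ignoring the pairs, an exact permutation test of 3 against 3 libraries gave a two-sided p of 0.1, again the smallest possible. The difference was larger than its spread over pairs, but neither test can reach 0.05 in this design.

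The ratio was also lower in KO in each pair with *Iglc1*, *Iglc2* or *Iglc3* alone as the denominator, although the groups then overlapped for *Iglc1*. *Igkc* over *Iglc1* was 9.96, 5.79 and 9.71 in KO and 13.6, 9.76 and 13.6 in WT (mean log2 difference -0.56). *Igkc* over *Iglc2* was 12.3, 8.65 and 12.3 in KO and 16.2, 15.3 and 26.6 in WT (-0.78), and over *Iglc3* it was 21.5, 12.5 and 18.7 in KO and 27.9, 21.6 and 41.8 in WT (-0.77). Divided by exon length, with 612 bases for *Iglc2*, the kappa to lambda ratio was 4.09, 2.51 and 3.92 in KO and 5.49, 4.30 and 6.78 in WT.

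As a share of the fragments on light chain constant genes, kappa was 81.4% (95% Wilson interval 80.8% to 81.9%), 73.0% (72.3% to 73.8%) and 80.8% (80.2% to 81.3%) in KO of pairs 1, 2 and 3. The WT shares were 85.4% (85.0% to 85.8%), 82.3% (81.8% to 82.8%) and 88.1% (87.7% to 88.4%). These intervals cover counting error only. The 2 libraries nearest to each other across the groups, KO of pair 1 and WT of pair 2, have intervals that overlap slightly. Such an overlap is no test of a difference, and whether this gap is larger than counting error was not tested. Within each pair the intervals are apart. The lambda share was accordingly 18.6%, 27.0% and 19.2% in KO and 14.6%, 17.7% and 11.9% in WT. Light chain constant genes together took 0.212% to 0.330% of all fragments on genes in KO and 0.321% to 0.652% in WT.

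**Figure D3:**
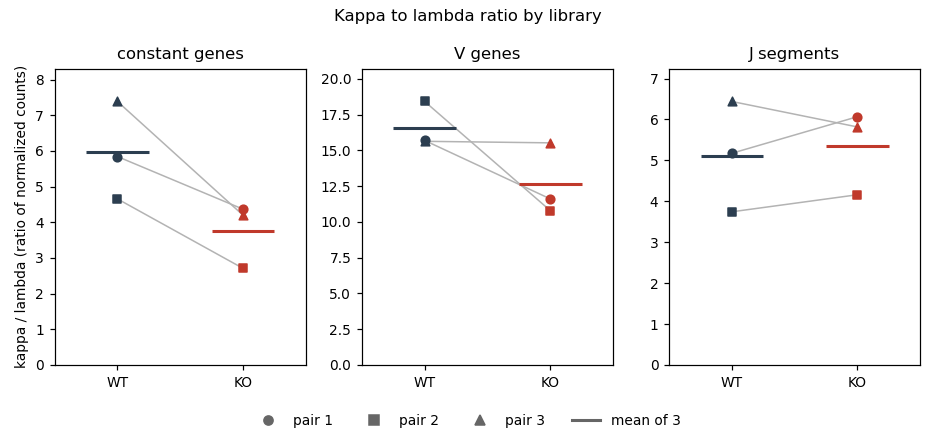
Ratio of kappa to lambda normalized counts in each library (linear axes from 0) for constant genes, V genes and J segments, with grey lines joining pairs and bars at the mean of 3. For constant genes the KO libraries lie at 2.71 to 4.37 and the WT libraries at 4.65 to 7.38, while the J segments show no such separation. The lambda J sum holds nothing from *Iglj2*.

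The V genes are the other end of the same transcripts and give a second reading. Their kappa to lambda ratio was 11.6, 10.8 and 15.5 in KO and 15.7, 18.4 and 15.6 in WT. The groups did not overlap, but in pair 3 the libraries were all but equal, with a log2 difference of -0.0099, against -0.43 and -0.77 in pairs 1 and 2. The mean over pairs was -0.41 ± 0.38 (SD, n = 3 pairs; exact sign-flip permutation test, two-sided p = 0.25), and it was -0.22 without pair 2. The constant and V ratios therefore differ most in pair 3, where the lambda V sum was 646 normalized counts in KO and 1763 in WT.

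The J segments did not show the lower ratio. Kappa over lambda J was 6.07, 4.16 and 5.82 in KO and 5.17, 3.74 and 6.44 in WT, higher in KO in pairs 1 and 2 and lower in pair 3 (mean log2 difference 0.08 ± 0.20 SD, n = 3 pairs). J segments are 38 to 43 bases long, and a fragment that also covered a V or constant exon was not counted under the settings the methods give. The sums were 163 to 236 normalized counts for lambda and 769 to 1450 for kappa. The lambda J sum holds nothing from *Iglj2*, which lies within an exon of *Iglc2*. The J ratio is thus not a reading of the same fragments as the constant and V ratios. Of the lambda J segments 3 of 5 were tested and all had a negative log2 difference, but only 1 was lower in all 3 pairs. This was *Iglj1*, with an unadjusted p of 0.0207 (log2 difference -0.36 ± 0.12 SE, limma adjusted p = 0.970). Of the kappa J segments all 5 were tested and all had a negative log2 difference, but only 2 were lower in all 3 pairs. *Igkj1* (-0.48 ± 0.18 SE) and *Igkj2* (-0.33 ± 0.13 SE) had unadjusted p of 0.0337 and 0.0425 by limma. *Igkj3* (-0.06 ± 0.19 SE) and *Igkj4* (-0.10 ± 0.16 SE) had differences smaller than their SE. Over all genes, 6135 of 12322 had a negative difference, 13.1% were lower in all 3 pairs and 3.03% were lower at an unadjusted p under 0.05 in limma.

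The kappa V genes were lower in the same libraries as *Igkc*. The kappa V sum was 13407, 7200 and 10020 normalized counts in KO and 18251, 12396 and 27547 in WT, and its ratio to *Igkc* stayed between 0.715 and 0.794 in all 6 libraries. Of 100 kappa V genes 84 were tested, and 83 of them were lower in KO, 74 in all 3 pairs, against 13.1% of all genes. Their median log2 difference was -0.82 (quartiles -0.97 and -0.68), and the medians by pair were -0.41, -0.63 and -1.33. *Igkc* lay among these genes, with 31 of 84 below it, while 79 of 84 were below *Iglc1*. V genes are read from the same libraries and partly share sequence, and are not independent replicates.

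**Figure D4:**
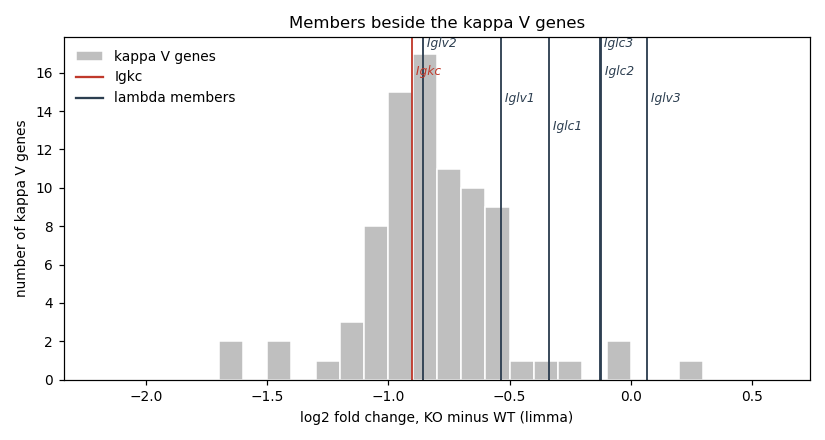
Number of kappa V genes by log2 difference of KO minus WT (grey bars, 84 genes), with vertical lines at *Igkc* (red) and at the 6 tested lambda genes (dark). *Igkc* at -0.90 and *Iglv2* at -0.86 fall in the bulk of the kappa V genes, while *Iglc2*, *Iglc3* and *Iglv3* lie to the right of most of them.

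The lambda V sum, by contrast, was 0.299, 0.187 and 0.194 of the lambda constant sum in KO and 0.286, 0.186 and 0.349 in WT. In pairs 1 and 2 the V to constant ratio was nearly the same in both genotypes, and in pair 3 that of WT was the highest of the 6 libraries. The same held for each cluster taken alone, since *Iglv1* over *Iglc1* plus *Iglc3* was 0.206 in KO and 0.352 in WT of pair 3, and *Iglv2* plus *Iglv3* over *Iglc2* was 0.170 and 0.343.

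Within lambda, *Iglc1* made up 43.9%, 46.8% and 43.3% of the constant fragments in KO and 43.0%, 47.7% and 54.5% in WT. *Iglc2* made up 27.7% to 36.0%, *Iglc3* 17.7% to 22.5% and *Iglc4* at most 0.342% over the 6 libraries. The WT library of pair 3 had the highest share of *Iglc1* and the lowest shares of *Iglc2* and *Iglc3*. Its ratio of *Iglc1* to *Iglc3* was 3.08, against 1.93 to 2.21 in the other libraries. *Iglv1* took most lambda V fragments in every library, from 64.5% to 72.7%. *Iglv2* over *Iglv3* was 0.912, 0.627 and 0.555 in KO and 1.30, 0.880 and 1.91 in WT, lower in KO in each pair, with log2 differences of -0.51, -0.49 and -1.79. *Iglv2* rested on only 76 to 262 fragments a library, and its values share sequence with those of *Iglv1*.

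**Figure D5:**
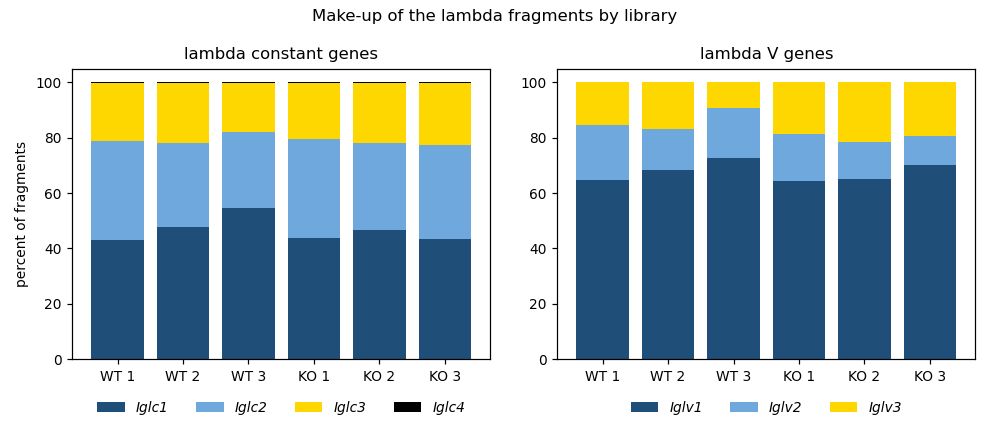
Percent of lambda constant fragments (left) and of lambda V fragments (right) on each gene, as stacked bars per library. *Iglc1* takes 43.0% to 54.5% and *Iglv1* 64.5% to 72.7%, with WT of pair 3 highest in both.

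Per kilobase of exon, levels can be compared between genes, but less well for *Iglc2*. Its annotated exons cover 612 bases over all its transcripts, against 458 in the transcript used for the sequence above. Its value per kilobase may thus be too low. In WT the mean was 48788 normalized counts per kilobase for *Igkc*, 4566 for *Iglc1*, 2157 for *Iglc2*, 1861 for *Iglc3* and 25.9 for *Iglc4*, and 2128 for *Iglv1*, 589 for *Iglv2* and 399 for *Iglv3*. In KO the order was the same for the constant genes, at 25417, 3531, 1977, 1701 and 30.9. *Iglv1* had 1392 in KO, and *Iglv3* with 421 was above *Iglv2* with 322. *Igkc* was clear of *Iglc1* in every library of both groups. Neighbours further down the order were not all apart on this scale, since *Iglc2* of WT ranged from 1796 to 2389 and *Iglv1* from 1179 to 3280. *Iglc3* of WT ranged from 1723 to 1977, but its overlap with *Iglc2* depends on the length taken for *Iglc2*. In normalized counts *Iglc2* was above *Iglc3* in every library. *Ighm*, the IgM heavy chain gene, had 23818 in WT and 19056 in KO on the same scale, and *Ighg1*, the IgG1 heavy chain gene, 14429 and 7032.

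The heavy chain constant genes are the partners of the light chains. Of 8 tested, 7 were lower and 1 higher in KO, 6 were lower in all 3 pairs and 4 had an unadjusted p under 0.05, none passing the adjusted threshold in limma. These were *Ighg1* (log2 difference -0.97 ± 0.20 SE), *Ighg2b* (-0.73 ± 0.21 SE), *Ighg3* (-0.58 ± 0.18 SE) and *Ighm* (-0.35 ± 0.12 SE). For comparison, 13.1% of the 12322 genes tested had the smaller value in the KO library of each pair. The share of genes with a decrease in KO at that unadjusted p was 3.03% by limma. *Igkc* relative to the summed heavy constant genes was 0.215, 0.265 and 0.249 in KO and 0.260, 0.323 and 0.325 in WT, lower in KO in each pair (log2 differences -0.28, -0.29 and -0.39), with groups that overlapped. The lambda constant sum relative to heavy chains went the other way, at 0.0491, 0.0978 and 0.0593 in KO and 0.0446, 0.0694 and 0.0440 in WT. It was higher in KO by 0.14, 0.49 and 0.43 on the log2 scale within pairs, again with groups that overlapped. Kappa and lambda together relative to heavy chains had log2 differences of -0.21, -0.11 and -0.26.

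Other genes of light chain biology were described by lists. The surrogate light chain, which stands in for a light chain in B cell precursors, was all but absent: *Igll1* and *Vpreb2* were listed at 0 and *Vpreb1* had at most 3.14 normalized counts. *Vpreb3*, a related gene also used in mature B cells, was 332, 484 and 408 in KO and 416, 550 and 453 in WT, lower in KO in each pair (log2 difference -0.22 ± 0.077 SE, unadjusted p = 0.0261 and adjusted p = 0.970 by limma). Of 10 genes of V(D)J recombination, *Rag1* and *Rag2*, which cut the segments, were listed at 0. Of the 7 tested, 0 had an unadjusted p under 0.05 in limma, with 2 lower and 5 higher and a median log2 difference of 0.064. Of 17 transcription factors that bind light chain enhancers or promoters, 0 had an unadjusted p under 0.05, with 7 lower, 10 higher and a median of 0.029. The most abundant of them were *Mef2c* (-0.02 ± 0.06 SE), *Pou2af1* (-0.05 ± 0.08 SE), which encodes the octamer coactivator OBF-1, and *Nfkb1* (-0.07 ± 0.06 SE).

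Of 12 genes listed for antibody folding and assembly in the endoplasmic reticulum, all were lower in KO, 11 in all 3 pairs, against 13.1% of all genes. By limma 11 were lower at an unadjusted p under 0.05, against 3.03% of all genes, and none passed the adjusted threshold. The median log2 difference of the 12 was -0.40. *Hspa5*, the chaperone BiP that holds unpaired heavy chains, was 10252, 7608 and 9625 normalized counts in KO and 12347, 9509 and 14369 in WT (log2 difference -0.39 ± 0.080 SE, limma adjusted p = 0.693). *Hsp90b1* (-0.42 ± 0.11 SE) and *Pdia4* (-0.30 ± 0.059 SE) were the next most abundant of this list. *Jchain* was the member without an unadjusted p under 0.05, higher in KO in pair 1 and lower in pairs 2 and 3.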

How the data were processed

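RNA-seq libraries of 3 KO and 3 WT B cell cultures were grouped by the genotype in the labels. The authors aligned reads of 75 nt with STAR 2.6.1a to mm10 (GRCm38), counted strand-specific fragments with a mapping quality of at least 10 on Gencode vM19 exons with featureCounts (Subread 1.6.3), and scaled the counts of each library with DESeq2. What they deposited is the normalized count of each gene, here called a signal, with no pseudocount. Whole reads were recovered from 100% of values (tolerance 0.01 of a fragment). Scaling to equal medians hides a change shared by most transcripts, and fragments on several genes are lost, which lowers near-identical paralogs and V to J to constant junctions.

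Symbols, positions and sequences came from Gencode vM21 (54409 identifiers matched, 37 not). The test was limma 3.58.1 (R 4.3.3, lmFit, eBayes with a trend, two-sided) on log2(value + 1) over 12322 genes whose mean reached 10, with the pair as a block and Benjamini-Hochberg adjustment over all of them. Fold changes on this scale are slightly understated for low genes. edgeR 4.0.16 and DESeq2 1.42.0 on recovered fragments, other scalings, filters and pseudocounts, and leaving out each pair were alternatives. Ratios were tested by exact sign-flip permutation over pairs. Scripts were tested on simulated data. Depth was 5393558 to 6793520 fragments, median 6607728.5, and 3 fragments, the limit for a count of 0, equal 2.72 to 3.61 normalized counts. Same-numbered libraries are littermates in 1 batch and deviated together from their group means, least so in pair 3 (correlations over genes 0.328, 0.685 and 0.170). No libraries were duplicates: chi-square per gene was 4.82 to 24.2 over all combinations of 2 libraries. Between KO and WT of pairs 1, 2 and 3 it was 6.20, 4.82 and 17.8. KO of pair 3 was nearer to WT of pair 1 (11.9) than to WT of its own pair. The genes and lists were chosen with earlier results of these data known. Named genes are the 8 light chain genes, genes of the light chain, heavy chain and assembly lists with an unadjusted p under 0.05 or the 3 with the highest mean, and the 5 most similar in profile; of 11 assembly genes under 0.05 those with the highest means are named. *Cd79a*, *Cd74*, *Cr2*, *Lck* and the plasma cell markers named singly were named after their values were seen.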

Additional observations from a re-analysis of the deposited data

How the results depend on the processing

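The count of genes lower in KO past the adjusted threshold was 0 in the reported limma fit, 22 with DESeq2, and between 0 and 168 when 1 pair was left out, 168 of them without pair 1. The count higher in KO was 0, 1 with DESeq2, and between 0 and 3 when 1 pair was left out. *Igkc* passed the threshold only without pair 1 (log2 difference -1.10, limma adjusted p = 0.00203), over a range of -1.10 to -0.64 when 1 pair was left out. Without the pair as a block its log2 difference was again -0.90 (limma adjusted p = 1.00), and the block changed no call. Over 13 alternatives the direction of *Igkc*, *Iglc1*, *Iglc2*, *Iglc3*, *Iglv1* and *Iglv2* held, and the difference of *Iglv3* turned to -0.033 without pair 1 and -0.071 without pair 2, against 0.30 without pair 3. The cause was not tested. The kappa to lambda constant ratio stayed between -0.80 and -0.56 over 10 alternatives, the V ratio between -0.60 and -0.22 over 5, and the lambda constant sum between -0.34 and -0.044 over 8, and these exact tests cannot reach 0.05 in this design. Depth limits *Iglc4*, with 6 to 14 fragments a library.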

Other observations

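Profiles over the 6 libraries most like that of *Igkc* (Pearson's r of log2 values among 9581 genes whose mean reached 50) were those of *Samsn1* (r = 0.999), an adaptor protein gene of lymphocytes, *Igkv12-44* (0.996), *Igkv10-96* (0.993), *Ighv2-2* (0.993) and *Igkv4-68* (0.992). With Ig genes left out they were *Samsn1*, *Tmem59* (0.991), *Dnajc3* (0.989), a co-chaperone of the endoplasmic reticulum, *Cyb5a* (0.987) and *Slc39a6* (0.986). For the lambda constant sum they were *Mpc2* (0.994), which encodes a mitochondrial pyruvate carrier subunit, *Igkv14-126* (0.993), *Pink1* (0.990), *Chid1* (0.984) and *Prdx4* (0.983), a peroxiredoxin of the endoplasmic reticulum, and *Lman2* (0.981) once Ig genes were left out. The lambda constant sum itself had an r of 0.889 with *Igkc*, and *Iglv3* had 0.348. With 6 libraries that share scaling and pairs, the best of 9581 genes is high in any case, and these are descriptions only.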
